A study of Mus musculus with 144 samples.

Results

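Iron handling was followed through 9 genes in primary mouse hepatocytes treated with TCDD (2,3,7,8-tetrachlorodibenzo-*p*-dioxin), an activator of the aryl hydrocarbon receptor (AHR). The 9 genes were chosen by name, as the genes of hepcidin, of its regulation and of iron entry, storage and exit, and they are 9 of the 55359 genes in the count files. *Hamp* encodes hepcidin. *Bmp6*, *Hfe* and *Tfr2* encode proteins that set hepcidin transcription. *Tfrc* and *Slc11a2* encode iron importers, *Fth1* and *Ftl1* the ferritin chains, and *Slc40a1* the iron exporter ferroportin. All 9 genes passed the filter on low counts in every comparison.

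Hepcidin is a peptide hormone made by hepatocytes that binds ferroportin and removes it from the cell surface, so that less iron enters plasma. In the liver, BMP6 from endothelial cells acts through BMP receptors and SMAD proteins on the *Hamp* promoter, HFE and transferrin receptor 2 join this iron-sensing arm, and interleukin 6 acts through STAT3. Inside cells, iron regulatory proteins bind RNA hairpins called iron-responsive elements (IREs) when iron is scarce. Binding near the start of the ferritin and ferroportin mRNAs blocks their translation, whereas binding in the end of the *Tfrc* mRNA protects it from decay. Ferritin protein therefore can change with no change in the mRNA counted here. *Tfrc* is a member whose mRNA level is known to follow cell iron by this route.

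Hepatocytes came from male mice of 28 days, either wild-type C57BL/6NCrl or the strain Pkm-delta-DRE, in which a dioxin response element inside the *Pkm* gene had been deleted by CRISPR in every cell of the body. Each was treated with 10 nM TCDD or with DMSO vehicle for 2, 4, 8 or 12 h, or for 24, 48, 72, 96 or 120 h, with 4 libraries in each of the 36 groups. All cultures were attached in serum and then kept in a medium that held transferrin, insulin, selenium, ascorbic acid and dexamethasone. Controls and treated cells were offered the same medium, and the iron load of its transferrin is not known here. Levels are in CPM, the share of a library's counts on a gene, scaled by the trimmed mean of M values over all libraries, and a gene was called changed at a Benjamini-Hochberg adjusted p-value under 0.05, over all genes tested by edgeR's quasi-likelihood test, with a fold change of at least 1.5. The labels do not say which libraries came from the same mouse or culture, so p-values measure only the spread between these samples.

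*Pkm* itself went against the genotype labels. At 24 h its mean was 420 CPM (TCDD) and 154 CPM (vehicle) in the libraries labelled PkmΔDRE, and 81.9 and 87 CPM in those labelled WT. The groups are therefore named as libraries labelled WT or labelled PkmΔDRE, and single libraries by their titles. Library P172_40 (WT, TCDD, 2 h) and library P172_64 (WT, TCDD, 72 h) held 1.36 and 27.6 CPM of *Cyp1a1*, the standard AHR target, the lowest of their groups, while vehicle libraries P172_21 (WT, 48 h) and P172_31 (WT, 96 h) held 3253 and 1641 CPM. Library P172_65 (WT, TCDD, 96 h) had 63.3% of its stranded counts on strand 1, against 50.3% to 51.5% in the others. The profile of vehicle library P172_80 (PkmΔDRE, 4 h) was nearest the mean of 96 h, that of library P172_104 (PkmΔDRE, 96 h) nearest 4 h, and that of library P172_97 (PkmΔDRE, 72 h) nearest 120 h. They were kept under their labels, and values without them stand beside the results that rest on them. Depth on genes was 13588848 to 30719161 read pairs per library.

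Markers of hepatocytes fell during culture, which bears on every level below. The summed CPM of 6 hepatocyte markers had a median of 172763 at 2 h, 32345 at 24 h and 8760 at 120 h. Over the same hours the medians went from 392 to 152 to 86.9 CPM for 7 endothelial markers, from 283 to 110 to 44.8 for 8 macrophage markers, from 23.8 to 15.1 to 80.9 for 6 stellate cell markers, from 84 to 41.8 to 135.8 for 4 cholangiocyte markers, and from 189 to 33.2 to 0.322 for 4 erythroid markers, of which *Alas2* gave nearly all. The stellate and cholangiocyte sums rest on few genes that did not move together. From 2 to 120 h the medians of *Sox9* went from 80.9 to 96.5 CPM and of *Krt19* from 0.814 to 27.9, while *Epcam* fell from 2.77 to 1.06. Those of *Col1a1* went from 0.146 to 26.2 CPM and of *Reln* from 13.1 to 14.9, while *Dcn* fell from 8.14 to 6.57. In such bulk samples fewer cells of a type and less RNA per cell cannot be told apart, and the part of these shifts in the iron genes was not tested.

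Of the 9 genes, 4 had an IRE hairpin of the form searched in their principal transcript. That form was a 6-base loop CAGNGN (the fourth base A or T, the last not G) on an unbroken stem of 5 base pairs, with an unpaired C before the stem. The 5 bases beyond on each side are printed and were not required to pair. These elements are shown because they are what the storage, export and uptake mRNAs share, in opposite positions. The capitals mark the loop. The sequences are from GENCODE M21 transcripts on GRCm38, where *Fth1* has it in the 5′ UTR at chr19:9982733-9982759 on the plus strand, *Ftl1* in the 5′ UTR at chr7:45459780-45459806 on the minus strand and *Slc40a1* in the 5′ UTR at chr1:45925466-45925492 on the minus strand. *Tfrc* has 5 in its 3′ UTR, of which those at chr16:32631161-32631187 and chr16:32631599-32631625 are shown, both on the plus strand.
Fth1, 5′ UTR: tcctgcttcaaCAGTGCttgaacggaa
Ftl1, 5′ UTR: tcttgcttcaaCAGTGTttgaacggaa
Slc40a1, 5′ UTR: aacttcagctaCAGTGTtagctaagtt
Tfrc, 3′ UTR, upstream: tttatcagtgaCAGAGTtcactataaa
Tfrc, 3′ UTR, downstream: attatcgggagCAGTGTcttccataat

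Such a hairpin was found in the 5′ UTR of 35 of 21951 transcripts (0.159%, 1 transcript per gene) and in the 3′ UTR of 152 (0.693%). No hairpin of this form was found in the principal *Slc11a2* transcript. The search took 1 transcript per gene and no stem with a bulge, so it cannot show that *Slc11a2* or another member lacks an IRE.

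The *Hamp* promoter is shown because *Hamp* moved more than any other member. These are the 250 bases before the RefSeq start on GRCm38.p6, chr7:30944030-30944279 on the minus strand, with a BMP-responsive element (GGCGCC) and, nearer the start, a STAT site (TTCNNNGAA) in capitals. The window of *Hamp2*, a near copy of the gene on the same chromosome at chr7:30924182-30924431, matched it at 227 of 247 aligned bases (91.9%). It holds the STAT letters, in capitals, and not GGCGCC.
Hamp promoter: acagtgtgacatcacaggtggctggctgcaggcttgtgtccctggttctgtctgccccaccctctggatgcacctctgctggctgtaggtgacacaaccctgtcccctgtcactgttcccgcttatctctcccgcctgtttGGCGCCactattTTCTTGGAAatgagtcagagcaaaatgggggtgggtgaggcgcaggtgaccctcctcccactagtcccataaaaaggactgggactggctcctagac
Hamp2 promoter: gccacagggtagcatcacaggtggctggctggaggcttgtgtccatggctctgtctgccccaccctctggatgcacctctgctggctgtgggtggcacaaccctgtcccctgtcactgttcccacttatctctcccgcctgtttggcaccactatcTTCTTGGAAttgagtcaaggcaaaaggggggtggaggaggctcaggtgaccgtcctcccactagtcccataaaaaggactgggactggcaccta

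Of 32851 promoter windows of this length, 9.59% held GGCGCC and 7.02% held TTCNNNGAA on either strand. The core of the dioxin response element, GCGTG, is not in the *Hamp* window and was found in 28.2% of all windows. It was found in at least 1 window of *Bmp6*, *Tfr2*, *Tfrc*, *Fth1* and *Ftl1* and not in the *Hfe* window. These matches are letters in a window and say nothing of binding. *Hamp2* reached at most 2.32 CPM in any library and its median was 0 CPM, so pairs placed on the near copy alone were few beside those of *Hamp* at the early hours. Pairs that matched more than 1 place were counted on no gene and are in neither value.

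Levels between genes were compared as CPM per kilobase of the principal transcript in the 8 vehicle libraries of an hour. Pairs that matched more than 1 place are not in these levels, so genes with near copies, such as *Hamp* and *Ftl1*, can be undercounted. At 2 h the order was *Fth1* at 6669 ± 1005 (SD, n = 8), *Hamp* at 1568 ± 557, *Ftl1* at 586 ± 83.6, *Tfr2* at 295 ± 57.6, *Slc11a2* at 41.5 ± 13.8, *Hfe* at 25.7 ± 6.28, *Slc40a1* at 7.99 ± 2.48, *Bmp6* at 2.80 ± 0.899 and *Tfrc* at 2.75 ± 1.25. *Bmp6* and *Tfrc* differed by less than their SDs. At 120 h *Fth1* was still highest, at 4214 ± 957, and *Ftl1* was next, at 237 ± 59.1. *Slc40a1* (23.3 ± 5.26), *Bmp6* (23 ± 5.88), *Hamp* (18.3 ± 17.6), *Tfr2* (15.4 ± 10.7) and *Slc11a2* (14.5 ± 3.82) then followed within 1 SD of their neighbours. Between these hours the hepcidin and TFR2 transcripts had dropped in the order, and those of ferroportin and *Bmp6* had moved up.

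*Hamp* was lost from vehicle cultures within a day and partly returned at 48 h. In the libraries labelled WT it was 390, 608, 652 and 591 CPM at 2 h, 55.1, 57.2, 18.9 and 20.3 CPM at 8 h, and 0.204, 1.21, 0.650 and 1.18 CPM at 24 h. At 48 h the 4 libraries held 0.521, 15.8, 163 and 34 CPM. The groups of 2, 8 and 24 h did not overlap, whereas at 48 h the lowest library was still inside the range of 24 h. That was library P172_21, the vehicle library high in *Cyp1a1*, and the other 3 were all above the range of 24 h. In the libraries labelled PkmΔDRE the values were 1041, 405, 911 and 545 CPM at 2 h, 29.6, 24.6, 18.6 and 45.2 CPM at 8 h, 1.45, 0.732, 0.819 and 1.83 CPM at 24 h, and 55.4, 37.5, 122.8 and 93 CPM at 48 h. Here all 4 libraries of 48 h stood above all 4 of 24 h.

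The log2 change of *Hamp* from 2 to 8 h was -3.90 ± 0.82 (SE) under the label WT and -4.66 ± 1.13 under PkmΔDRE, with adjusted p-values of 0.000325 and 0.00627. From 8 to 24 h it was -5.59 ± 0.95 and -4.53 ± 1.16 (adjusted p = 3.32e-05 and 0.0274), and from 24 to 48 h it was 6.07 ± 0.96 and 6.00 ± 1.23 (adjusted p = 7.87e-05 and 0.00854). The step from 8 to 24 h under PkmΔDRE was not called without library P172_89, P172_90 or P172_91 (adjusted p = 0.0590 to 0.0749), and the step from 24 to 48 h was not called without library P172_90 (0.0538). Of all genes tested, 31.9% were called from 2 to 8 h, 29.1% from 8 to 24 h and 8.06% from 24 to 48 h under the label WT, and 11%, 3.33% and 1.90% under PkmΔDRE. Over the whole course, 57.9% (WT) and 49.4% (PkmΔDRE) of genes were called between 2 and 120 h, which makes a single call between these hours a common outcome, and 0.517% and 0.106% between 48 and 72 h, where no member was called. From 2 to 120 h *Hamp* fell by 5.84 and 7.06 on the log2 scale.

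**Figure D1:**
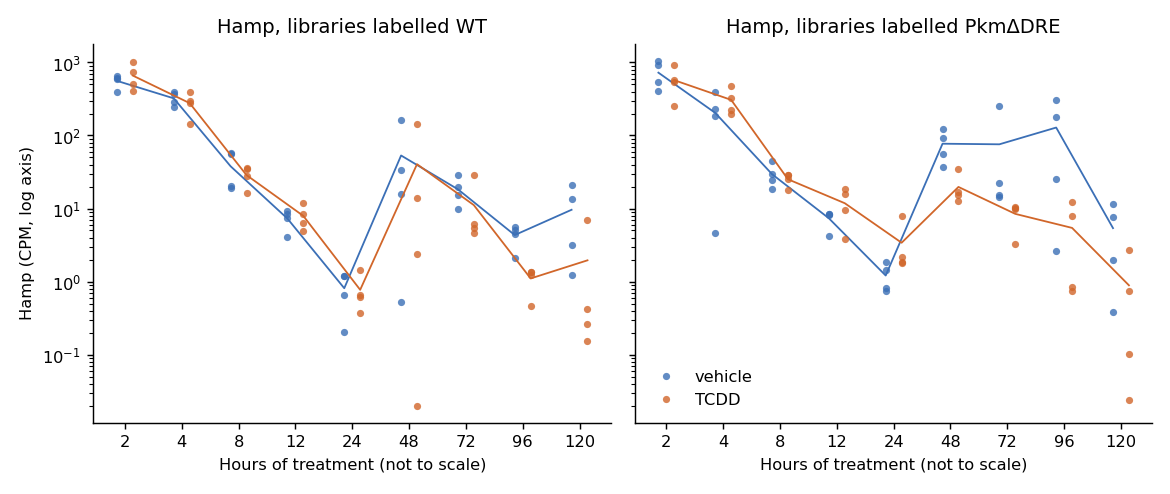
*Hamp* in CPM (log axis) against hours in culture, with one panel for each genotype label, points for libraries and lines for the means of 4 libraries of vehicle and of TCDD. All 4 lines fell from their highest means at 2 h to 24 h and were higher again at 48 h, and the lowest mean was at 24 h in all but TCDD under PkmΔDRE, where it was at 120 h (0.888 CPM, against 3.40 CPM at 24 h); the library at 0 is drawn at 0.02 CPM, and from 48 h on the TCDD mean lay under the vehicle mean at each hour.

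With TCDD no *Hamp* change was called through 24 h, where the fitted log2 changes ran from -0.27 to 1.40, and the TCDD means were below those of vehicle from 48 h on. From 48 to 120 h the fitted change was below 0 in 8 of the 8 comparisons, with a median log2 change of -2.20 and a range of -4.63 to -0.38. These hours were set apart after the values were seen, and 7.50% of the 12220 genes tested in all 8 comparisons were also below 0 in each. A single comparison reached the call. At 96 h under the label WT the vehicle libraries held 2.12, 5.63, 4.43 and 5.14 CPM and the TCDD libraries 0.463, 1.36, 1.36 and 1.22 CPM. All TCDD libraries were below all vehicle libraries, and the log2 change was -1.88 ± 0.38 (adjusted p = 0.00410). It was -1.88 without library P172_31 and -1.64 without library P172_65 (adjusted p = 0.00916 and 0.00594). In this comparison 15.1% of genes tested were called and 34.6% had groups that did not overlap.

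Under the label PkmΔDRE, *Hamp* at 48 h was 55.4, 37.5, 122.8 and 93 CPM with vehicle and 16.8, 15.3, 34.3 and 12.6 CPM with TCDD, a log2 change of -1.98 ± 0.42 that was not called (adjusted p = 0.124). At 72 h it was 14.2, 251, 22.4 and 15.5 CPM with vehicle and 10.2, 9.75, 10.6 and 3.30 CPM with TCDD (log2 change of -3.19 ± 0.90, adjusted p = 0.163). In both comparisons the highest TCDD library lay below the lowest vehicle library, as was so for 4.66% and 6.34% of genes in either direction, while 0.404% and 1.13% of genes were called. The 48 h change was called without library P172_94 (-2.22, adjusted p = 0.0130). The 72 h change was called without library P172_97 (-3.54, adjusted p = 0.0250), and it was -1.03 without library P172_98, which held the 251 CPM.

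At 96 h under PkmΔDRE the vehicle values of *Hamp* were 180, 25.5, 2.61 and 306 CPM and the TCDD values 7.87, 12.3, 0.731 and 0.835 CPM. The groups overlapped, and the log2 change of -4.63 ± 1.49 was not called (adjusted p = 0.617). The 306 CPM came from library P172_104, and without it the change was -3.72 (adjusted p = 0.250). At 120 h the vehicle values were 7.67, 11.5, 0.378 and 1.97 CPM and the TCDD values 2.69, 0.736, 0.101 and 0.0236 CPM, the last being 1 read pair (log2 change of -2.59 ± 1.21, adjusted p = 0.689).

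Under the label WT at 48 h *Hamp* ranged from 0.521 to 163 CPM with vehicle and from 0 to 146 CPM with TCDD. The library at 0 allows up to 0.158 CPM, the level of 3 counts, a limit that covers counting error only. At 72 h the vehicle values were 19.5, 15.5, 9.95 and 28.4 CPM, and the TCDD values were 4.61, 5.4, 6.12 and 28.4 CPM. The 28.4 CPM with TCDD was library P172_64, the one low in *Cyp1a1*, and without it the change was -1.78 (adjusted p = 0.212). At 120 h the vehicle values were 3.12, 20.7, 13.4 and 1.22 CPM and the TCDD values 0.153, 0.418, 6.97 and 0.262 CPM. The 6.97 CPM was library P172_71. The log2 change was -2.42 ± 1.30 (adjusted p = 0.409) with it and -5.12 (adjusted p = 0.0746) without it.

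*Tfr2*, which encodes the transferrin receptor that hepatocytes use to sense plasma iron, fell throughout culture. In vehicle libraries labelled WT it was 794, 887, 730 and 778 CPM at 2 h, 170, 181, 157 and 199 CPM at 24 h and 34.3, 104.7, 14.1 and 33.6 CPM at 120 h. None of these groups overlapped. The log2 change from 2 to 120 h was -4.05 ± 0.35 under the label WT and -4.43 ± 0.75 under PkmΔDRE, both called. With TCDD for 8 h under the label WT, *Tfr2* was 321, 311, 196 and 316 CPM, against 608, 550, 533 and 483 CPM with vehicle. All treated libraries were lower, with a log2 change of -0.80 ± 0.16 (adjusted p = 0.00252). Of all genes tested in this comparison 37.4% were called and 43% had groups that did not overlap, so a call there was common. The summed hepatocyte markers were also lower without overlap, at 81570 to 100223 CPM with vehicle and 66703 to 70581 CPM with TCDD, and the stellate cell markers higher, at 15.4 to 18.5 and 46.2 to 90.5 CPM. These shifts stand beside the changes of *Tfr2*, *Hfe*, *Ftl1* and the other members at 8 h, and their part in them was not tested. The share of uniquely mapped pairs on no annotated gene also differed there, at 0.0836 to 0.219 with TCDD and 0.0489 to 0.0599 with vehicle. A fit with this share as a covariate called 40.4% of genes tested. It cannot fully separate the share from treatment, as the groups did not overlap in it.

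*Tfr2* groups also did not overlap at 24 and 96 h under the label WT, where TCDD was lower by small amounts that were not called. At 24 h the vehicle values ran from 157 to 199 CPM and the TCDD values from 120.9 to 150 CPM, in a comparison with 0.373% of genes called and 9.32% not overlapping. At 96 h 34.6% of genes did not overlap. Under PkmΔDRE no *Tfr2* change was called, and at 8 h the ranges were 351 to 605 CPM with vehicle and 314 to 538 CPM with TCDD. Library P172_104 held 797 CPM at 96 h, against 43.4 to 110 CPM in the other vehicle libraries of its group.

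*Hfe*, which encodes the MHC class I-like protein that pairs with the transferrin receptors, declined less. Its log2 change from 2 to 120 h was -1.19 ± 0.20 (WT) and -1.56 ± 0.30 (PkmΔDRE), both called. At 8 h under the label WT it was 57.6, 68, 54 and 52.5 CPM with vehicle and 41.2, 37.8, 28.5 and 43.2 CPM with TCDD. The groups did not overlap, as was so for 43% of genes tested. The adjusted p-value was 0.0261, but the log2 change of -0.50 was under the fold minimum.

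*Bmp6*, the ligand that drives *Hamp*, moved the other way in culture. In vehicle libraries labelled WT it was 12.1, 11.2, 6.17 and 14.8 CPM at 2 h and 70.4, 70.2, 50.8 and 70.7 CPM at 120 h, with no overlap. The log2 change was 2.62 ± 0.31 under the label WT and 3.45 ± 0.62 under PkmΔDRE, both called. From 72 to 120 h it rose by 1.65 ± 0.30 (WT, adjusted p = 0.00121, 3.48% of genes called), and the change of 1.24 ± 0.57 under PkmΔDRE was not called (adjusted p = 0.655, 0.0564% of genes called). Without libraries P172_80, P172_97 and P172_104 the latter was 1.65 (adjusted p = 0.0296).

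With TCDD for 96 h under the label WT, *Bmp6* was 48.7, 32.6, 34.5 and 35.1 CPM, against 83.5, 73, 55.4 and 61.1 CPM with vehicle. All treated libraries were lower, and the log2 change was -0.76 ± 0.16 (adjusted p = 0.00587). Of all genes tested there, 15.1% were called and 34.6% had groups that did not overlap. The highest treated library was library P172_65, and the change was -0.93 without it. *Bmp6* is known from endothelial cells in liver, and the summed endothelial markers in this comparison were 71.1 to 87.9 CPM with vehicle and 46.3 to 64.6 CPM with TCDD. The cholangiocyte markers were 247 to 287 CPM with vehicle and 121.7 to 140.4 CPM with TCDD. The part of those cells in the changes of *Bmp6*, *Hamp* and *Ftl1* at 96 h was not tested. Under PkmΔDRE at 96 h *Bmp6* ran from 5.66 to 95.8 CPM with vehicle, the lowest value being library P172_104, and from 45.7 to 79.9 CPM with TCDD. *Bmp6* overlaps *Txndc5* on the opposite strand, which had a median of 209 CPM, and reads of both genes cannot be told apart in unstranded counts where they overlap.

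**Figure D2:**
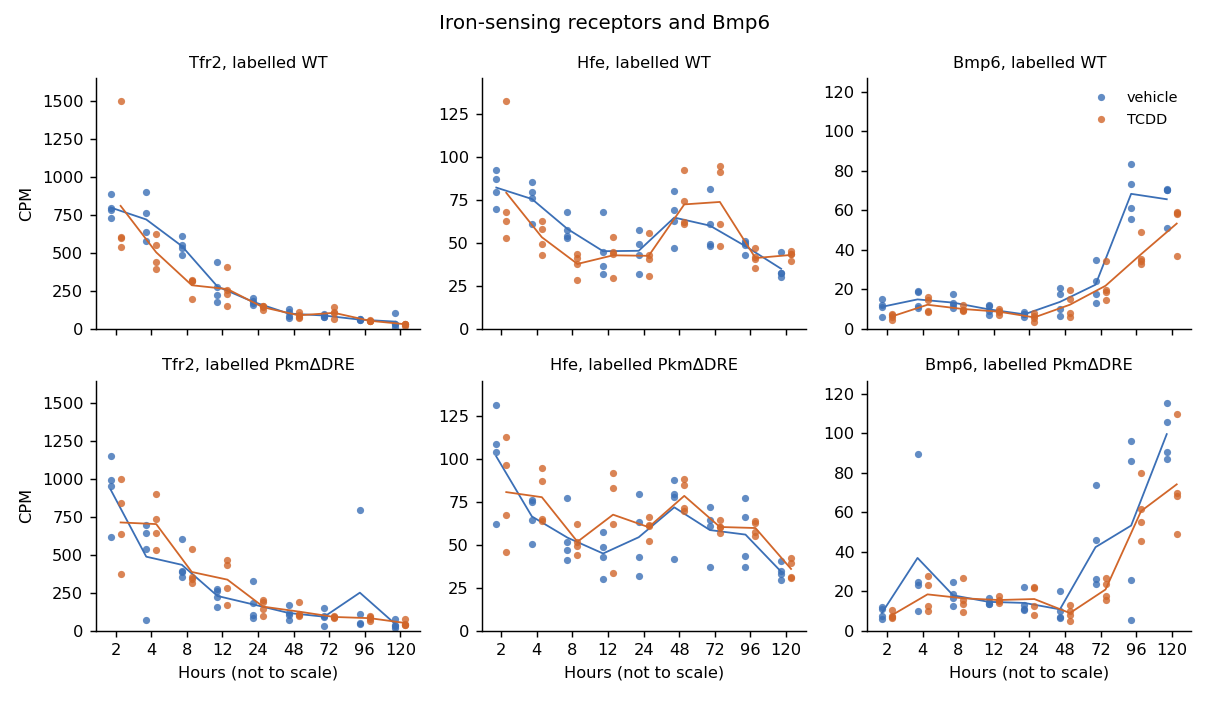
*Tfr2*, *Hfe* and *Bmp6* in CPM (linear axes) against hours in culture, by genotype label, with points for libraries and lines for the means of 4 libraries of vehicle and of TCDD. *Tfr2* was lower and *Bmp6* higher at 120 than at 2 h under both labels; the vehicle points of libraries P172_80 and P172_104 stand far from their groups at 4 and 96 h.

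*Tfrc*, which encodes the receptor that brings transferrin-bound iron into most cells, rose in vehicle cultures labelled WT. It was 12.5, 8.65, 15 and 12.4 CPM at 2 h, 16.4, 16, 32.4 and 33.9 CPM at 8 h, 74.4, 65.4, 63.9 and 25.6 CPM at 24 h and 56.6, 39.4, 35.5 and 37 CPM at 120 h. The values at 24 and at 120 h were above all those at 2 h. The step from 8 to 24 h was called (1.24 ± 0.42, adjusted p = 0.0210), although not without library P172_09, P172_10, P172_17 or P172_18 (adjusted p = 0.0508 to 0.0765), and so was the change from 2 to 120 h (1.85 ± 0.43). Under PkmΔDRE the same changes were 1.65 ± 0.66 and 1.45 ± 0.66 and were not called (adjusted p = 0.128 and 0.0661).

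With TCDD for 8 h under the label WT, *Tfrc* was 30.2, 59.8, 62.4 and 65.7 CPM. Of these, 3 libraries were above the highest vehicle library and 1, library P172_45, was inside the vehicle range. The log2 change was 1.28 ± 0.30 (adjusted p = 0.00513), in a comparison with 37.4% of genes called. Library P172_45 had 48.0% of its read pairs on no gene, against 25.1% to 30.1% in the others, and without it the change was 1.48 (adjusted p = 0.000815). The other TCDD libraries still had a larger share of uniquely mapped pairs on no gene than every vehicle library. With all hours of the label in 1 fit the *Tfrc* change was 1.16 and was not called (adjusted p = 0.0603), and with 1 surrogate variable added to that fit the direction turned (-0.65, adjusted p = 0.138).

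*Tfrc* was also higher with TCDD at 24 h under the label WT, at 80, 106.9, 116.8 and 91.6 CPM. Those groups did not overlap, as was so for 9.32% of genes tested, but the change was not called. At 120 h 3 TCDD libraries were at 98, 96.5 and 93.4 CPM and library P172_71 was at 22.0 CPM. The change was called without library P172_71 (1.16, adjusted p = 0.00425). Under PkmΔDRE no *Tfrc* change was called, and the TCDD mean was above the vehicle mean at 6 of 9 hours, against 8 of 9 under the label WT.

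*Slc11a2*, which encodes the divalent metal transporter DMT1, fell in culture. From 2 to 120 h its log2 change was -1.27 ± 0.33 (WT) and -1.73 ± 0.27 (PkmΔDRE), both called, and no single step between neighbouring hours tested was. With TCDD for 8 h under the label WT it was 92.1, 95.3, 64.4 and 74.5 CPM, against 149, 135.5, 96.2 and 110.7 CPM with vehicle. The groups did not overlap, as was so for 43% of genes tested. The adjusted p-value was 0.0445, but the log2 change of -0.47 was under the fold minimum. At 72 h under PkmΔDRE the TCDD libraries (67.6 to 75.7 CPM) were all above the vehicle libraries (34.5 to 61.9 CPM), and this was not called. There 6.34% of genes had groups that did not overlap.

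*Slc40a1*, the ferroportin gene, dipped and then rose in vehicle cultures. Under the label WT it was 21.7, 19.3, 41.8 and 37.2 CPM at 2 h, 14.5, 16.4, 11.2 and 11.4 CPM at 8 h and 86.8, 72.9, 98.8 and 54.4 CPM at 24 h. No value was shared between the ranges of these hours. The rise from 8 to 24 h was 2.57 ± 0.32 (WT) and 2.47 ± 0.42 (PkmΔDRE) on the log2 scale, with adjusted p-values of 3.37e-07 and 0.00135, in the hours in which *Hamp* fell to its lowest values. The earlier fall from 2 to 8 h was called under the label WT (-1.18 ± 0.31, adjusted p = 0.00347), where the summed markers of macrophages, which also make ferroportin, were 195 to 334 CPM at 2 h and 192 to 238 CPM at 8 h. The part of macrophages in it was not tested.

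With TCDD for 8 h under the label WT, *Slc40a1* was 21.5, 13.2, 35.2 and 16.4 CPM, and the groups overlapped. The log2 change of 0.82 ± 0.29 was called (adjusted p = 0.0362), but not without library P172_09, P172_11, P172_12 or P172_47 (0.46 to 0.86, adjusted p = 0.0592 to 0.150). In that comparison, where 37.4% of genes were called, the summed macrophage markers were 192 to 238 CPM with vehicle and 64.5 to 133.98 CPM with TCDD. The stellate cell markers were 15.4 to 18.5 CPM with vehicle and 46.2 to 90.5 CPM with TCDD. The part of these cells in the change of *Slc40a1* was not tested. With all hours of the label in 1 fit the change was 0.70 (adjusted p = 0.102), and with 1 surrogate variable added to that fit it was -0.018 (adjusted p = 0.999).

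**Figure D3:**
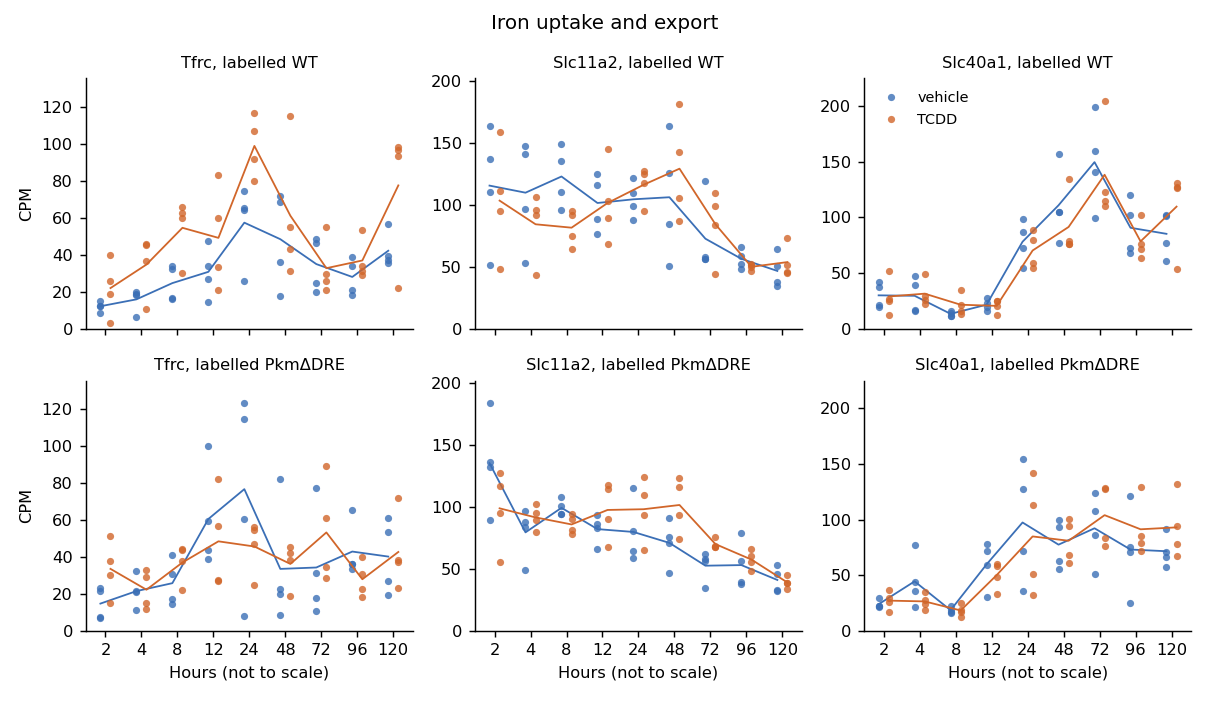
*Tfrc*, *Slc11a2* and *Slc40a1* in CPM (linear axes) against hours in culture, by genotype label, with points for libraries and lines for the means of 4 libraries of vehicle and of TCDD. With vehicle *Slc40a1* had its lowest mean at 8 h under both labels, and all its means from 24 h on lay above those of 2 h, *Tfrc* rose over the first day under the label WT, and *Slc11a2* declined.

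The ferritin chains are the storage members, the heavy chain with ferroxidase activity from *Fth1* and the light chain, which helps to form the iron core, from *Ftl1*. *Fth1* had the smallest change of the 9 genes from 2 to 120 h, -0.53 ± 0.28 (WT) and -0.75 ± 0.34 (PkmΔDRE), and no vehicle step of it was called. Its step from 8 to 24 h under the label WT (-0.71, adjusted p = 0.0544) was called without library P172_20, P172_24, P172_25, P172_26 or P172_27 (-0.93 to -0.71, adjusted p = 0.00863 to 0.0490), and the change from 2 to 120 h under PkmΔDRE was called without library P172_108 (-0.94, adjusted p = 0.0411). *Ftl1* fell by 1.1 ± 0.27 (WT, adjusted p = 0.000794) and 1.49 ± 0.43 (PkmΔDRE, adjusted p = 0.00506) on the log2 scale.

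*Ftl1* was called lower with TCDD at 8 and at 96 h under the label WT. At 8 h it was 1040, 804, 826 and 648 CPM with vehicle and 593, 353, 293 and 340 CPM with TCDD (log2 change of -0.95 ± 0.21, adjusted p = 0.00369). At 96 h it was 358, 412, 366 and 420 CPM with vehicle and 182, 238, 244 and 214 CPM with TCDD (-0.73 ± 0.099, adjusted p = 0.000628). In both comparisons all treated libraries were lower. Of all genes tested there, 37.4% (8 h) and 15.1% (96 h) were called, and 43% and 34.6% had groups that did not overlap. The change at 96 h was -0.77 without library P172_31 and -0.67 without library P172_65, both called. *Fth1* was likewise lower without overlap at 8 and 96 h under this label, by -0.52 (adjusted p = 0.0252) and -0.25 (adjusted p = 0.0800), both under the fold minimum. The 8 h change of *Fth1* was called without library P172_45 (-0.63, adjusted p = 0.0109) or P172_11 (-0.59, adjusted p = 0.0245). Under PkmΔDRE neither chain was called at any hour.

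The balance of the chains was described as the ratio of *Fth1* to *Ftl1* in CPM per kilobase of transcript in each library, a measure chosen after the values were seen. Within a library this ratio does not depend on the scaling. In vehicle libraries labelled WT its mean went from 8.85 (7.18 to 10.8) at 48 h to 16.1 (15.6 to 16.4) at 120 h. With TCDD it was 15.9 (14 to 20.2) at 48 h, and at 120 h it was 25.2 (23.4 to 27.6). The ranges did not overlap at 12, 48, 96 and 120 h under the label WT, with TCDD higher, nor at 2 h, with TCDD lower.

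Under PkmΔDRE the ratio at 48 h was 9.35 (8.62 to 11.4) with vehicle and 14.4 (13.4 to 15.5) with TCDD, and at 96 h it was 15.4 (11.1 to 18) and 22.1 (20.4 to 25.3). Neither pair overlapped. At 120 h under PkmΔDRE the means were 20.3 with vehicle and 18.6 with TCDD, and they overlapped. Over the 18 comparisons a two-sided exact permutation test gave 7 p-values of 0.0286, the smallest that 4 libraries against 4 allow, of which 6 were for a higher ratio. After Benjamini-Hochberg adjustment over the 18 these were 0.0735, so none passed 0.05.

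At 72 h the ratio overlapped under both labels, in each case through 1 library. Under the label WT library P172_64 was the lowest TCDD library, and the others were 17.5 to 19.5 against 9.83 to 15.8 with vehicle. Under PkmΔDRE library P172_97 was the highest vehicle library, and without it the vehicle libraries were 9.74 to 15.5 against 18.2 to 19.9 with TCDD. The log2 difference at 96 h under PkmΔDRE shrank from 0.540 to 0.391 without library P172_104. At 2 h under WT it went from -0.275 to -0.196 without library P172_40. It grew from 0.846 to 0.899 at 48 h under WT without library P172_21, and from 0.479 to 0.556 at 96 h without libraries P172_31 and P172_65. The ranges stayed apart in each of these.

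**Figure D4:**
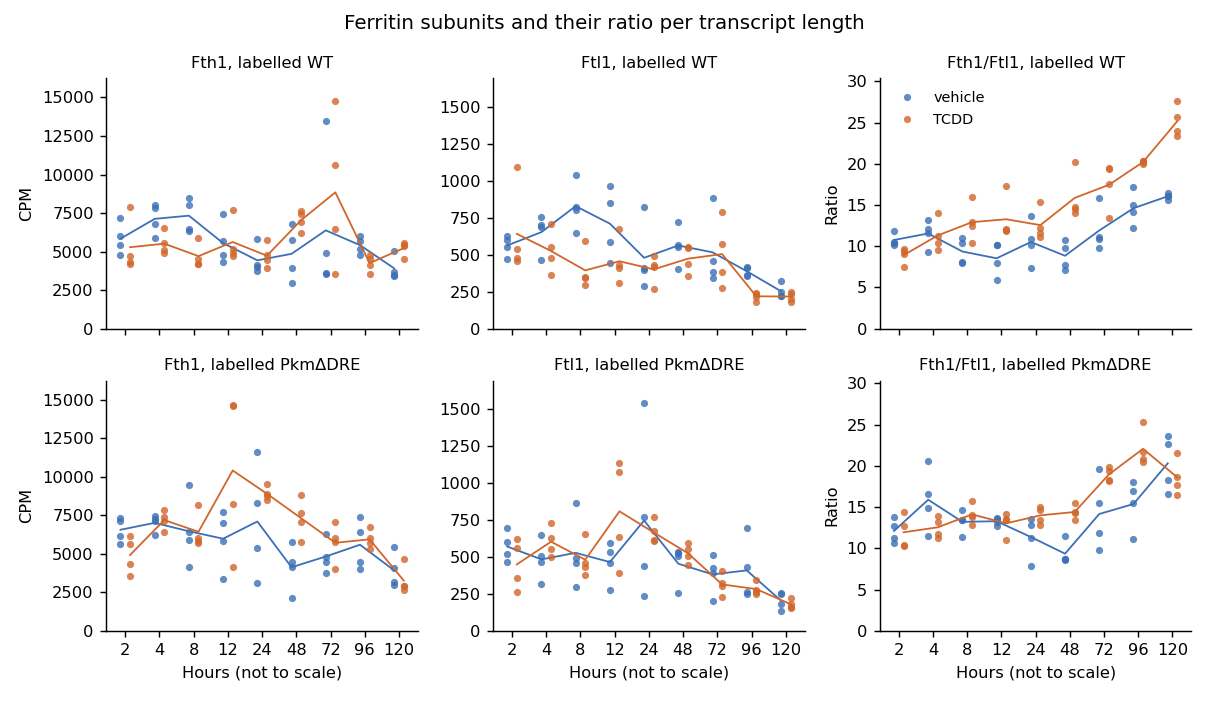
*Fth1* and *Ftl1* in CPM and the ratio of the 2 per kilobase of transcript against hours in culture, by genotype label, with points for libraries and lines for the means of 4 libraries of vehicle and of TCDD. *Ftl1* lay below vehicle at 8 and 96 h in the panels labelled WT, and the ratio with TCDD stood above vehicle at 48 and 96 h under both labels.

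Over the 81 tests of the 9 genes against TCDD in each label, 7 were called under WT, of which 2 were higher (*Tfrc* and *Slc40a1* at 8 h) and 5 lower (*Ftl1* and *Tfr2* at 8 h, *Hamp*, *Bmp6* and *Ftl1* at 96 h). That is 4 of 9 genes at 8 h, where 37.4% of all genes were called, and 3 of 9 at 96 h, where 15.1% were. Under PkmΔDRE edgeR called 0 of 81, with 7 at an unadjusted p-value under 0.05, and DESeq2 called 2. The share of all genes called under PkmΔDRE was 0.106% (8 h), 0.0240% (12 h), 0.0160% (24 h), 0.0793% (96 h) and 0.633% (120 h). Under WT it was 0.0321% (12 h), 0.00763% (48 h) and 1.46% (120 h). No gene was called at 2, 4 and 72 h under WT or at 2 and 4 h under PkmΔDRE. The difference between the labels in the response was tested as an interaction at each hour, and edgeR called 0 of 81 (7 at an unadjusted p-value under 0.05, and DESeq2 called 0), where 0.00715% of all genes were called at 48 h, 0.00695% at 72 h and 0 at the other hours. A call under one label and not the other therefore does not show that the labels differed. With all hours of the label in 1 fit, *Ftl1* and *Tfr2* at 8 h stayed called under WT, *Hfe* at 8 h was added (-0.60, adjusted p = 0.0348), and those at 96 h were lost. That fit called 28.9% of genes tested at 8 h and 0.713% at 96 h. With 1 surrogate variable added to it, 0 members were called under WT, and 0.540% of genes at 8 h.

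**Figure D5:**
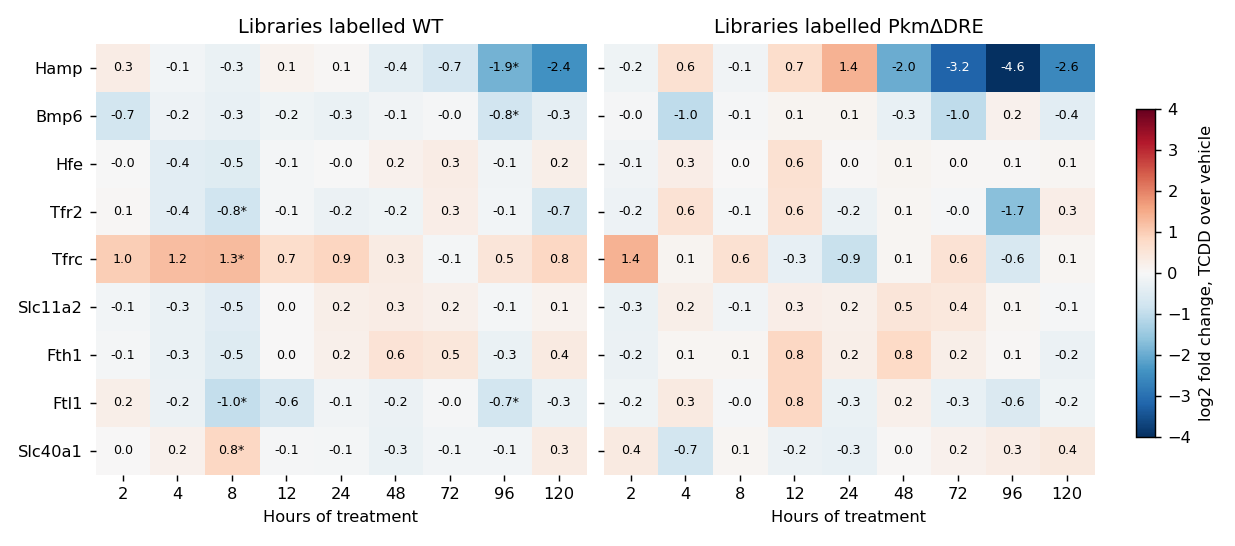
Fitted log2 change with TCDD against vehicle for the 9 genes (rows) and 9 hours (columns) under each genotype label, each from 4 libraries against 4, with asterisks on the 7 changes that were called. The calls lie at 8 and 96 h under the label WT, and *Hamp* is below 0 from 48 h on under both labels.

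Between the labels in vehicle, 1 of 81 tests was called, at 12 h. Of all genes 0.0576% were called at 8 h and 0 at the hours other than 8 and 12. *Slc40a1* at 12 h was 19.9, 23.1, 27.8 and 15.6 CPM in libraries labelled WT and 78.1, 30.3, 71.6 and 58.8 CPM in those labelled PkmΔDRE, with no overlap. The log2 difference was 1.5 ± 0.28 (adjusted p = 0.0228), where 3.68% of all genes were called. It was 1.37 to 1.53 without library P172_14, P172_85, P172_87 or P172_88 and then not called (adjusted p = 0.0682 to 0.0986). The summed endothelial markers there were 116.5 to 230 CPM (WT) and 218 to 266 CPM (PkmΔDRE), the macrophage markers 119.5 to 246 and 100.5 to 135.4 CPM, the cholangiocyte markers 22.8 to 90.4 and 11.6 to 22.1 CPM, and the stellate cell markers 9.5 to 27.2 and 29.9 to 38.7 CPM, without overlap and higher under PkmΔDRE as *Slc40a1* was. Their part was not tested. Of the 56 related iron genes listed below, 6 of 478 tests between the labels in vehicle were called, all at 12 h. Under PkmΔDRE 4 were higher on the log2 scale, *Hmox1* (3.03), *Acvr2a* (1.17), *Il6ra* (1.03) and *Il6st* (1.00). The 2 lower ones were *Scara5* (-2.71) and *Hjv* (-1.48).

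Other genes of the same pathways were counted in 5 lists of 56 genes. With TCDD for 8 h under the label WT, the median log2 change of all genes was 0.0040. Of 19 tested regulators of *Hamp*, 8 rose and 3 fell (median log2 change of 0.47). Those with the largest changes were *Acvr2a*, a receptor for BMP ligands (1.66 ± 0.26, adjusted p = 0.00124), *Neo1*, a partner of hemojuvelin (1.5 ± 0.22, adjusted p = 0.00106), *Smad5*, which carries BMP signals (1.27 ± 0.27, adjusted p = 0.00348), and *Il6st*, the signalling chain of the interleukin 6 receptor (1.21 ± 0.23, adjusted p = 0.00209).

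Of 13 genes of iron uptake, reduction and plasma carriers, 2 rose and 4 fell in that comparison (median -0.42). *Hpx*, which encodes the haem carrier hemopexin, fell by 1.17, *Lcn2*, which encodes a binder of iron-loaded siderophores, by 1.08, and *Hp*, which encodes haptoglobin, by 1.01 on the log2 scale. Of 8 genes of storage handling and export, 4 rose and 0 fell (median 0.42). They were *Heph* and *Cp*, which encode the ferroxidases hephaestin and ceruloplasmin (1.82 and 1.2), *Flvcr1*, which encodes a haem exporter (1.41), and *Ncoa4*, which encodes the receptor that takes ferritin to lysosomes (1.05).

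Of the 3 genes of IRE binding, *Ireb2*, which encodes iron regulatory protein 2, rose by 1.53 ± 0.30 and *Fbxl5*, which encodes the ligase subunit that removes that protein when iron is plentiful, by 0.95 ± 0.28. Of 10 genes of mitochondrial iron, 1 rose and 4 fell (median -0.51). Among those that fell were *Iscu* (by 0.77) and *Glrx5* (by 0.69), genes of iron-sulphur cluster assembly. As 37.4% of all genes were called in this comparison, nothing particular to these lists is read from their counts.

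At 96 h under the label WT, where 15.1% of all genes were called, the same lists held 2 up and 2 down of 20 regulators, 0 and 1 of 13 uptake genes, 0 and 1 of 7 storage genes, 1 and 0 of 3 IRE-binding genes and 1 and 0 of 10 mitochondrial genes. *Scara5*, which encodes a receptor for ferritin, fell by 1.19. Under PkmΔDRE edgeR called 0 of 478 tests of these lists over the 9 hours (37 at an unadjusted p-value under 0.05, and DESeq2 called 6), against 36 of 480 under the label WT. Those 36 were all at 8 and 96 h, where 37.4% and 15.1% of all genes were called. The interaction of label and treatment was called by edgeR in 0 of 485 tests (34 at an unadjusted p-value under 0.05, and DESeq2 called 0). The counts therefore do not show that the labels differed.

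Between 2 and 120 h of vehicle culture, where 57.9% (WT) and 49.4% (PkmΔDRE) of all genes were called, 1 of the 13 tested uptake genes rose and 8 fell under each label. Nothing particular to the list is read from this count. *Slc39a14*, which encodes the importer of iron that is not bound to transferrin, changed by -4.48 ± 0.24 (WT) and -4.58 ± 0.60 (PkmΔDRE). The metalloreductase gene *Steap4* changed by -5.20 and -5.49, and its relative *Steap2* by 4.49 and 4.18. *Tmprss6*, the hepatocyte protease that restrains hepcidin, changed by -3.04 ± 0.36 and -3.56 ± 0.64. *Bmpr2*, a BMP receptor gene, changed by 2.39 and 2.38.

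Of storage and export genes, *Hmox1*, which encodes the haem oxygenase that frees iron, changed by -3.94 and -4.19 between 2 and 120 h, and *Cp* by 2.43 and 2.46. *Ireb2* (2.80 and 2.36) and *Fbxl5* (1.94 and 2.07) rose and *Aco1*, which encodes iron regulatory protein 1, fell by 0.74 and 0.94. Of 10 mitochondrial genes, 2 rose and 6 fell under the label WT and 0 rose and 7 fell under PkmΔDRE, among them *Glrx5* (-1.59 and -1.45).

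Over the 36 group means of log2 CPM, 11416 genes were ranked by Pearson correlation with 3 members, as a description of points that share hours and libraries. The genes nearest *Hamp* were *Pdia6* (0.920), *Clec4g* (0.910), *Ivd* (0.909), *Aldh7a1* and *Decr1*, of which *Clec4g* is one of the endothelial markers. Those nearest *Tfrc* were *Cacybp* (0.945), *Mtdh*, *Cse1l*, *Zfp367* and *C1galt1*, and those nearest *Slc40a1* were *Ccdc163* (0.929), *Igf2bp1*, *Msi2*, *Il18rap* and *Asap2*. Among the members, *Slc11a2* and *Ftl1* had a correlation of 0.81, *Hamp* and *Tfr2* of 0.72, *Tfr2* and *Slc40a1* of -0.80, and *Bmp6* and *Slc11a2* of -0.88.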

How the data were processed

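Gene expression was measured by RNA-Seq in 144 libraries of primary mouse hepatocytes, in 36 groups of 4 set by the genotype, treatment and hour in the labels. The authors trimmed reads with Trimmomatic 0.39, checked them with FastQC 0.11.3 and aligned them with STAR 2.7 to GRCm39, per the submitters' processing notes, and deposited unnormalized gene counts, of which the unstranded column was used. The 4 lines that name no gene (16.8% to 48.0% of pairs) entered neither library sizes nor tests. Counts were scaled by TMM, filtered with filterByExpr (count minimum 10, total minimum 15) and tested with the robust quasi-likelihood test of edgeR 4.0.16 (R 4.3.3), 1 fit per comparison and, for vehicle hours, per label. Alternatives used DESeq2 1.42.0, limma 3.58.1 and sva 3.50.0. The scripts were tested on simulated counts. Of the 55359 genes, 52083 were given symbols from GENCODE M21.

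The 9 genes, the lists and the marker sets were chosen with earlier results of these data known. The text names all 9 genes, up to 4 called genes with the largest changes per list in a family of comparisons, and the 5 most similar patterns of 3 genes. For *Bmp6*, *Slc11a2* and *Ftl1*, which overlap other genes, unstranded counts cannot separate the 2 strands. Pseudogenes of *Ftl1* reached at most 7.95 CPM. Protein sequences were not used here, and promoter windows of *Slc40a1* and *Slc11a2* were not used here. Single values of some genes of the mitochondrial list are not reported here.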

Additional observations from a re-analysis of the deposited data

Results flagged for a closer look

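In 324 groups of 4 libraries (9 genes in 36 groups), 38 had 1 library far from the other 3 relative to the group's range, by Dixon's criterion at 95%, and chance flags about 1 in 20 groups. The 38 came from 27 libraries. Library P172_71 (WT, TCDD, 120 h) stood apart for 6 of the 9 genes, with *Hamp* at 6.97 CPM, *Bmp6* at 36.8, *Tfr2* at 18.2, *Tfrc* at 22.0, *Fth1* at 4541 and *Slc40a1* at 53.7 CPM, of which only *Hamp* was the highest of its group and the others were the lowest. Library P172_40 (WT, TCDD, 2 h), with little *Cyp1a1*, was highest for *Tfr2* at 1497 CPM, *Fth1* at 7921 and *Ftl1* at 1096 CPM. Library P172_45 (WT, TCDD, 8 h), with the largest share of pairs on no gene, was lowest for *Tfrc* at 30.2 CPM and highest for *Fth1* at 5912 CPM. Library P172_65 (WT, TCDD, 96 h), with the uneven strands, was lowest for *Hamp* at 0.463 CPM and highest for *Bmp6* at 48.7 CPM.

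The other libraries with TCDD under the label WT that stood apart were at 146 CPM (48 h) and 28.4 CPM (72 h, library P172_64) for *Hamp*, 196 CPM (8 h) and 120.9 CPM (24 h) for *Tfr2*, 7718 CPM (12 h) for *Fth1*, and 134.5 CPM (48 h) and 205 CPM (72 h) for *Slc40a1*. With vehicle under that label they were at 50.8 CPM for *Bmp6* (120 h), 6.35 CPM for *Tfrc* (4 h), 119.5 CPM for *Slc11a2* and 13456 CPM for *Fth1* (both library P172_27, 72 h), and 5045 CPM for *Fth1* (120 h).

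Under PkmΔDRE with vehicle, *Hamp* was at 4.23 CPM (12 h) and 251 CPM (72 h), *Tfr2* at 605 CPM (8 h) and 797 CPM (96 h, library P172_104), *Tfrc* at 65.5 CPM (96 h), *Ftl1* at 255 CPM (48 h) and *Slc40a1* at 29.2 CPM (2 h). With TCDD, *Hamp* was at 7.78 CPM (24 h) and 3.30 CPM (72 h), *Tfr2* at 191 CPM (48 h), *Slc11a2* at 75.7 CPM (72 h, the same library as the 3.30 CPM) and *Fth1* at 8133 CPM (8 h) and 4627 CPM (120 h).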

How the results depend on the processing

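The numbers of called changes among the 9 genes were 7 (TCDD, label WT), 0 (TCDD, PkmΔDRE), 0 (difference in response), 1 (label difference in vehicle), 20 (vehicle time steps, WT) and 12 (PkmΔDRE). Under PkmΔDRE with TCDD the number became 2 with the DESeq2 Wald test, 3 with no filter on low counts, 2 with each library's no-gene share as a covariate, 1 without libraries P172_80, P172_97 and P172_104, 1 with 1 fit per label and 4 with 1 surrogate variable added to that fit, of which *Hamp* at 48 h was called by DESeq2, without the filter and with the covariate (adjusted p = 0.000329, 0.0305 and 0.0243). Under WT it became 3 with 1 fit per label and, from there, 0 with 1 surrogate variable added, where *Slc40a1* and *Tfrc* at 8 h changed sign (-0.018 and -0.65), and it was 7 to 10 under the others. The label difference gave 3 with DESeq2 and 4 with 1 fit of all libraries. *Hamp* at 96 h under WT was not called with the covariate (-1.55, adjusted p = 0.0646), and *Hamp* at 120 h was (-4.23, adjusted p = 0.00272). The causes were not tested. Leaving out 1 library at a time gave 6 to 8, 0 to 1, 0 to 1, 0 to 2, 16 to 22 and 10 to 13 in the order above, the 1 in the difference in response being *Tfrc* at 24 h without library P172_92 (-2.05, adjusted p = 0.0277) and the 2 in the label difference including *Ftl1* at 8 h without library P172_84 (-0.997, adjusted p = 0.01996). Among vehicle steps, those called with all libraries but not without 1 of them also included *Ftl1* from 72 to 120 h under WT (13 libraries, adjusted p = 0.0506 to 0.416), *Hfe* from 72 to 120 h under WT (6 libraries, 0.05002 to 0.271) and *Hfe* from 2 to 8 h under PkmΔDRE (10 libraries, 0.0502 to 0.148). Library P172_71 alone took the called genes at 120 h under WT from 580 to 209.

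The labels give no replicate numbers. The order of the libraries in a group, used as a replicate block, gave 7 (WT) and 4 (PkmΔDRE) called TCDD changes, 0 in the difference in response and 19 and 13 vehicle steps. In 4 of 18 comparisons all same-order pairs had correlated deviations over 0.1. Of 72 TCDD libraries, each set against the 4 vehicle libraries of its comparison, 34 were nearest the one of the same order. That is more than the 1 in 4 that chance gives, and at 24 and 48 h under WT it held for all 4. The labels do not tie these libraries, so the order was not taken as a pairing. Whether libraries of the same order share a preparation is not known. The 4 under PkmΔDRE were *Tfrc* at 2 h, *Fth1* and *Ftl1* at 12 h and *Hamp* at 48 h (adjusted p = 0.00349, 0.0207, 0.0109 and 0.0297). With the block, called genes went from 48 to 547 (WT, 24 h), from 0 to 1810 (PkmΔDRE, 2 h) and from 3 to 1439 (PkmΔDRE, 12 h). For single genes, 444 of the values under alternatives kept their side of the threshold and 30 gained a call. A change of sign was counted only where either fit made a call, and there were 2. The other 38 lost a call or stand for fits that left out 1 library, of which at least 1 lost it. At 24 h *Hamp* in vehicle rested on 6 to 31 counts, which limits its folds there.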
